A study of Rattus norvegicus with 2 samples.

Results

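Cathepsins and other lysosomal genes were described in rat intracranial arterial tissue on a pair of one-colour Agilent arrays. The genes were all rat genes whose symbol is Cts followed by a letter or digit (28 genes) and 26 listed lysosomal genes, 54 genes in all. Of these, 47 had a probe on the array, among 15159 genes with a named probe. The aneurysm library (1 array) was made from the lesion in an intracranial artery, 3 weeks after it had been induced, and the control library (1 array) from untreated intracranial arterial wall. The labels call the disease state aneurysm in the one and normal in the other, both measured as total RNA. Strain, sex, age, the way of induction and the number of animals behind each RNA are not known here. With 1 array per group there was no replicate, no test across samples was possible, and each difference below describes these 2 libraries. The number of arrays limits the precision.

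Lysosomes are acidic organelles in which hydrolases break down proteins, glycans and lipids. Cathepsins are their proteases, and several of them can also be secreted and cut elastin and collagen, the fibres that carry load in an arterial wall. Cystatins inhibit the cysteine cathepsins, and many lysosomal genes are switched on together by the transcription factor TFEB. Macrophages are rich in lysosomes, and smooth muscle and endothelial cells also make these enzymes.

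A level below is the log2 processed intensity of a gene's probe relative to the 75th percentile of its array, so that 0 is that percentile. Levels are set between the arrays for 1 probe only, never between genes, because probes differ in how strongly they bind. The summed signals of marker lists below add linear signals over the probes of a list, so that its brightest probes weigh most. A difference is the log2 level in the aneurysm library minus that in the control library. Each ± gives a spot error, which rests on how far repeat spots of a probe lie apart on 1 array and leaves out variation between animals.

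Of the 47 genes on the array, 38 passed the scanner's flag for a signal well above background on both arrays, and 1, Ctsq, on the aneurysm array alone. The other 8 were not well above background on either array. Among the 38 measured genes, 26 had a higher level in the aneurysm library and 12 a lower one, so that 68.4% were higher. Of all 11902 genes with a difference, 50.2% were higher. The median difference of the 38 genes was 0.14, with quartiles of -0.02 and 0.32, beside a median of 0.001 and quartiles of -0.21 and 0.19 over all genes. The extremes were Npc1 at -0.14 and Ctsw at 0.85.

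None of the 38 genes reached 2-fold in either direction, where 0.882% of all genes were at least 2-fold higher and 3.91% at least 2-fold lower (0.455% and 2.11% of the 11201 genes that, like these 38, were well above background on both arrays). At least 1.5-fold higher were 2 genes, Ctsw and Asah1 (5.26%), against 4.25% of all genes and 3.00% of the 11201. None was at least 1.5-fold lower, against 8.43% and 6.22%. The share of genes past 1.5-fold was thus near the background on the high side. Repeat spots of the same probe did not overlap between the arrays for most of these genes. Of the 37 genes with at least 2 spots on each array, 23 (62.2%) had every aneurysm spot above every control spot, and 7 (18.9%) had every aneurysm spot below. Over 9134 genes with repeat spots these shares were 35.1% and 32.9%.

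**Figure D1:**
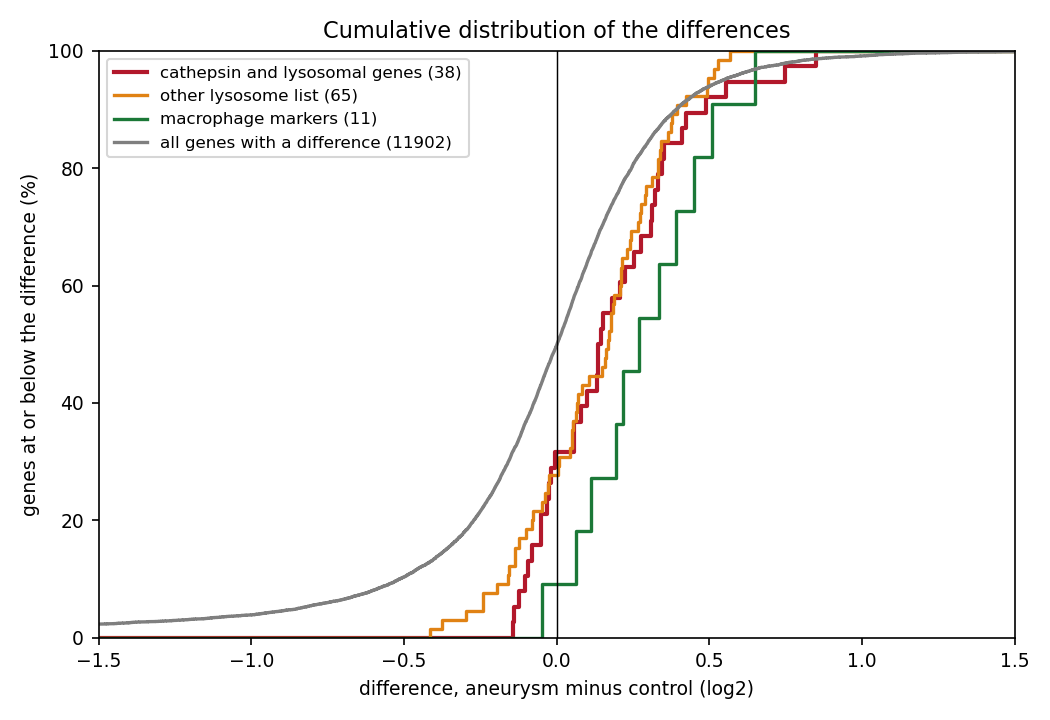
Cumulative share of genes (vertical axis, %) at or below a difference (horizontal axis, log2 aneurysm minus control) for the 38 measured cathepsin and lysosomal genes, the other lysosome list, macrophage markers and all genes. The line of the 38 genes starts at -0.14 and crosses its midpoint at 0.14, to the right of the line of all genes, whose midpoint is at 0.001.

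Markers of other cell types also differed between the libraries. All 6 smooth muscle markers were well above background on both arrays, with a median difference of 0.13. Of the 6 fibroblast markers, all well above background on both arrays, 5 were higher, with a median of 0.48 and a range of -0.03 for Col3a1 to 0.88 for Lum. Their summed signal was 95.5 times the 75th percentile in the aneurysm library and 79.1 times in the control library. Of 12 macrophage markers 11 were measured, 10 of them higher, with a median of 0.27 and a range of -0.05 for Cd68 to 0.65 for Cd163. The summed signal of these markers was 53.2 times the 75th percentile in the aneurysm library and 46.3 times in the control library. Hepatocyte markers went the other way: all 10 measured of 12 were at least 2-fold lower in the aneurysm library, with a median of -5.09. Fga, Fgg and Hrg were well above background on the control array alone, and the value of Fgg is a bound. The summed signal of the hepatocyte markers was 8.54 times the 75th percentile in the aneurysm library and 44.5 times in the control library. In the aneurysm library this sum rested mostly on Ttr, at 2.99 there and 4.41 in the control library. Ttr had the smallest difference of the 10, at -1.42. Cps1 and Tat of this list, and Marco of the macrophage list, passed the background flag on neither array. The 6 oligodendrocyte markers (median -1.18), all 5 measured of 6 neuron markers (median -0.81) and all 3 measured of 4 pituitary markers (median -2.23) were also lower. Of the 4 measured endothelial markers 2 were higher and 2 lower (median 0.08). The part of these other cells in the lysosomal differences was not tested. In such bulk tissue, more cells of a type and more RNA per cell cannot be told apart.

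The cysteine cathepsins, which cut proteins with a cysteine in their active site, had the highest median difference of the roles. Of 10 such genes 9 were measured and Ctso had no matched probe. Of the 9, 8 were higher in the aneurysm library, and the median of the 9 was 0.35. In all 8 every aneurysm spot lay above every control spot, as in 35.1% of all genes with repeat spots. For Ctsc the spots were barely apart, at 0.67 and 0.59 in the aneurysm library, against 0.53 and 0.58 in the control library. The grouping by catalytic class was made after the values were known and is a description.

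Ctsl encodes cathepsin L, a broad lysosomal endopeptidase that can degrade elastin. Its 2 spots were at 3.91 and 4.06 in the aneurysm library, against 3.46 and 3.53 in the control library. The spots did not overlap, and the difference was 0.49 ± 0.05 (1.40-fold), at the 93.7th percentile of all genes. Ctsz, which encodes the carboxypeptidase cathepsin Z, had spots at -0.67 and -0.71 in the aneurysm library, against -1.21 and -1.27 in the control library. That is a difference of 0.55 ± 0.09 (1.47-fold), just short of 1.5-fold.

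Ctsk and Ctss are the cathepsins best known for cutting matrix. Cathepsin K is the collagenase of osteoclasts, and cathepsin S, an elastase that stays active at neutral pH, also trims the invariant chain in antigen-presenting cells. For Ctsk the spots were at 1.93 and 1.88 in the aneurysm library, against 1.57 and 1.55 in the control library. The difference was 0.35 ± 0.06 (1.28-fold). For Ctss they were at 2.71 and 2.69 in the aneurysm library, against 2.38 and 2.40 in the control library, a difference of 0.31 ± 0.06 (1.24-fold). Neither gene's spots overlapped between the arrays. Both genes lie on the same chromosome with 1 other protein-coding gene between them in the RefSeq table.

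Ctsh, which encodes an aminopeptidase, was at 2.40 in the aneurysm library and 1.99 in the control library, a difference of 0.41 ± 0.06 (1.33-fold). Smaller differences belonged to Ctsf (0.18 ± 0.06) and to Ctsc (0.08 ± 0.06), the dipeptidyl peptidase that activates granule proteases of leukocytes. Ctsb was the only measured cysteine cathepsin that was not higher. Its spots were at 6.34 and 6.34 in the aneurysm library, against 6.35 and 6.37 in the control library, a difference of -0.02 ± 0.05. This value was within its spot error, and it was 0.11 with loess centring and 0.17 with quantile normalization. Ctsc was lower than Ctsb under these settings, at 0.07 with loess centring and 0.02 with quantile normalization.

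Ctsw, a cathepsin of cytotoxic T and NK cells, had the largest difference and the second largest spot error of the 38 genes. Its spots were at -3.74 and -4.10 in the aneurysm library, against -4.65 and -4.89 in the control library. The difference was 0.85 ± 0.48 (1.80-fold), and with normexp background correction on the processed or the median signals, which shrinks dim genes by construction, it was 0.18 or 0.09. Of 8 T and NK cell markers 7 had a difference, 5 of them higher, with a median of 0.12. They ranged from Gzmb, granzyme B, at -1.40 to Cd8a at 1.07 ± 0.54. Cd8a was well above background on the aneurysm array alone. Klrd1 was not above background by the flag. The summed signal of these markers was 0.946 times the 75th percentile in the aneurysm library and 0.889 times in the control library. Their part in the value of Ctsw was not tested.

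**Figure D2:**
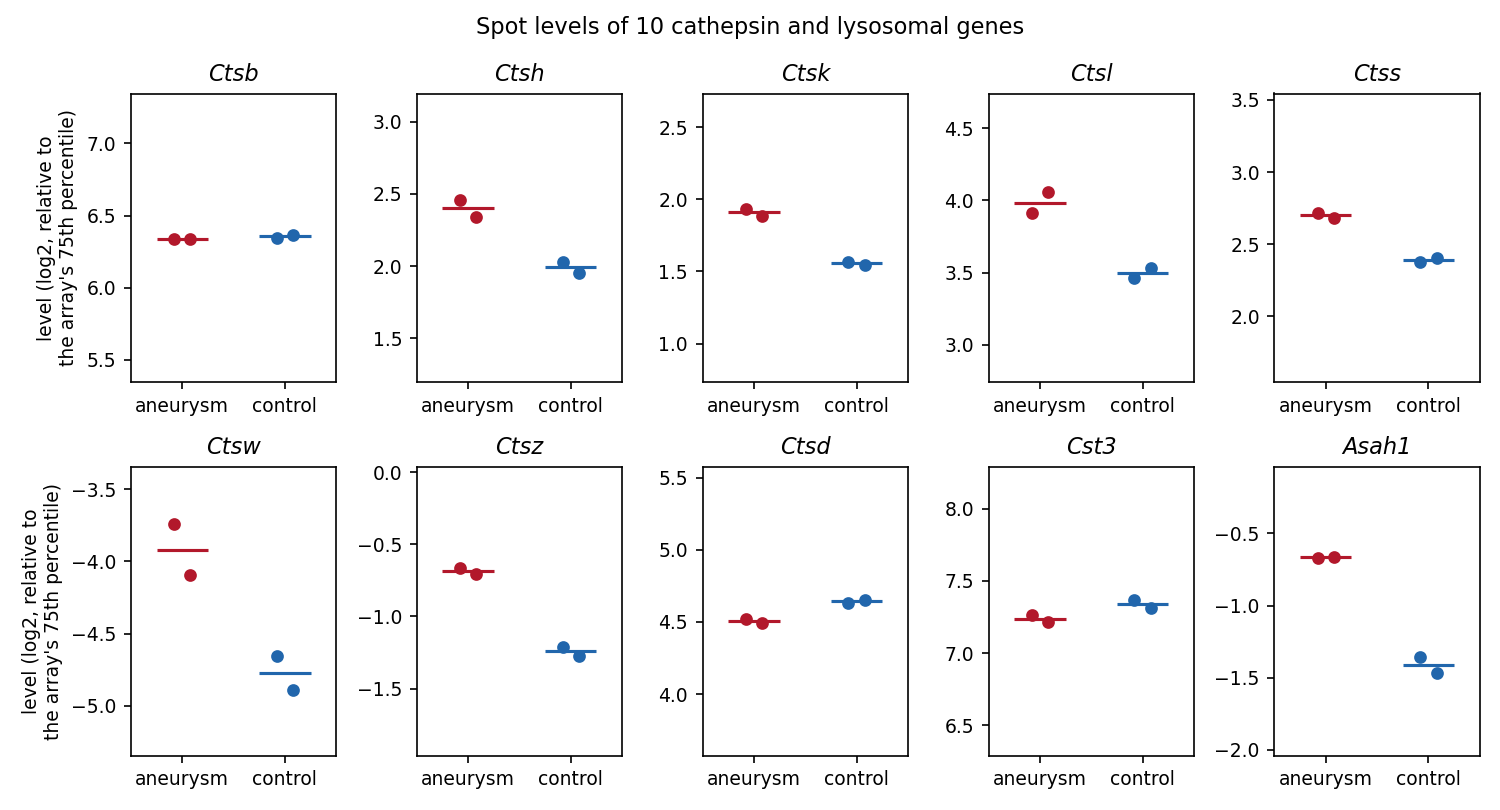
Levels of 10 genes on the aneurysm array (left in each panel) and the control array (right), in log2 units relative to the array's 75th percentile; each point is a spot and each bar the mean of 2 spots. Every panel spans the same number of log2 units: Ctsl, Ctsh, Ctsk, Ctss, Ctsz, Ctsw and Asah1 are higher on the aneurysm array, Ctsb differs by -0.02, and Ctsd and Cst3 are lower.

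The aspartic cathepsins and Ctsa, the 1 measured serine cathepsin, did not share the shift of the cysteine cathepsins. Ctsd, which encodes the main aspartic protease of lysosomes, had spots at 4.52 and 4.49 in the aneurysm library, against 4.63 and 4.65 in the control library. Its difference was -0.14 ± 0.05, and it was -0.07 with loess centring and with quantile normalization. Ctse, an aspartic protease found outside lysosomes as well, was at -2.82 in the aneurysm library and -2.81 in the control library, with overlapping spots. Ctsa, the carboxypeptidase that protects neuraminidase and beta-galactosidase, was at 5.30 in the aneurysm library and 5.33 in the control library (difference -0.03 ± 0.05). The sign of Ctsa depended on the scaling, with 0.06 for loess centring, 0.09 for quantile normalization and 0.28 for spike-in scaling. Ctsg, the granule protease of neutrophils and mast cells, was not well above background at any spot. Its processed intensities were 15.6 and 8.01 in the aneurysm library and 3.72 and 3.70 in the control library. Elane, which encodes the elastase of the same neutrophil granules, was not well above background either. The 4 measured neutrophil markers were all lower in the aneurysm library (median -0.34). Of 6 mast cell markers 4 had a difference, 1 higher and 3 lower (median -0.61). They ranged from Hdc at -1.82 ± 0.49, well above background on the control array alone, to Mcpt1 at 1.05 ± 0.54, on the aneurysm array alone. Only 2 of the mast cell markers were well above background on both arrays.

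The remaining 14 cathepsin genes form a cluster on 1 rat chromosome in the RefSeq table, and they are known from rodent placenta. Of these, 8 had a probe. None was well above background on both arrays. Ctsq passed on the aneurysm array through 1 of its 2 spots, with processed intensities of 23.6 and 3.26 there, against 3.62 and 3.63 in the control library. No bound could be given for it, because its mean lay under the lowest control level that is well above background. These genes are close copies, so that a signal on 1 probe could come from more than 1 of them.

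Of the inhibitors, cystatin C and cystatin B went opposite ways. Cst3, which encodes the secreted cystatin C, had spots at 7.26 and 7.21 in the aneurysm library, against 7.37 and 7.31 in the control library. Its difference was -0.10 ± 0.05, and it was 0.06 with loess centring, 0.20 with spike-in scaling and 0.14 with quantile normalization. Cstb, the intracellular cystatin B, was at 3.88 in the aneurysm library and 3.62 in the control library, a difference of 0.25 ± 0.05.

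Ratios within an array do not depend on scaling an array by a constant, but can move with scaling that varies with intensity. Relative to Cst3, the aneurysm library had 1.58-fold more signal of Ctsz than the control library, and 1.51-fold more of Ctsl (log2 0.66 ± 0.10 and 0.59 ± 0.07). The same ratio was 1.43-fold for Ctsh, 1.37-fold for Ctsk and 1.33-fold for Ctss, while for Ctsb it was 1.06-fold (0.08 ± 0.07). Quantile normalization, which reshapes the brightest signals, brought the log2 values to 0.38 for Ctsz, 0.36 for Ctsl, 0.23 for Ctsh, 0.19 for Ctsk and 0.13 for Ctss. Loess centring moved them less, to 0.48 for Ctsz, 0.47 for Ctsl, 0.35 for Ctsh, 0.28 for Ctsk and 0.26 for Ctss. Relative to Cstb the log2 values were smaller, at 0.30 for Ctsz, 0.24 for Ctsl, 0.10 for Ctsk and 0.06 for Ctss, and Ctsb was at -0.27. A ratio shows unequal change of its parts and not which of them changed.

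Among other proteases, Lgmn, the asparaginyl endopeptidase legumain that matures several cathepsins, was at 1.21 in the aneurysm library and 0.86 in the control library (difference 0.35 ± 0.06). Tpp1, a tripeptidyl peptidase, differed by 0.14 ± 0.06. Acp5, the tartrate-resistant acid phosphatase of osteoclasts and some macrophages, was measured by 10 spots per array. It was at 0.65 in the aneurysm library and 0.50 in the control library, a difference of 0.15 ± 0.03, and its spots overlapped. Of 7 osteoclast markers 3 had a difference. Calcr, with a bound of -2.00, and Oscar (-0.36) were lower in the aneurysm library. Itgb3 (0.71 ± 0.56), well above background on the aneurysm array alone, was higher. Their part in these values was not tested.

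The 5 genes of lipid enzymes and soluble lipid-binding proteins were all higher, led by Asah1. It encodes acid ceramidase, which splits ceramide into sphingosine and a fatty acid. Its spots were at -0.67 and -0.66 in the aneurysm library, against -1.36 and -1.47 in the control library. The difference was 0.75 ± 0.09 (1.68-fold), at the 97.9th percentile of all genes, and with normexp on median signals it was 0.57, under 1.5-fold. Smpd1, the acid sphingomyelinase that makes ceramide in the same organelle, differed by 0.10 ± 0.05. The other 3 were Npc2, which binds cholesterol (0.15 ± 0.06), Psap, the precursor of the saposins that present lipids to hydrolases (0.14 ± 0.06), and the acid lipase gene Lipa (0.06 ± 0.06).

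Of 9 glycosidases, 6 were higher and 3 lower, with a median of 0.13. Hexa, the alpha subunit of beta-hexosaminidase, led at 0.75 in the aneurysm library and 0.32 in the control library, a difference of 0.42 ± 0.06. Gusb (beta-glucuronidase) differed by 0.28 ± 0.09, with a second probe at 0.18, and Manba (beta-mannosidase) by 0.21 ± 0.06. Neu1, Glb1 and Ctsa encode a sialidase, beta-galactosidase and their protective protein, which form one complex. Neu1 differed by 0.22 ± 0.09 and Glb1 by 0.13 ± 0.06, beside Ctsa at -0.03. The dimmer probe of Glb1 was at 0.52 ± 0.14, and the mean over both probes was 0.33. Fuca1 (alpha-fucosidase) was at 0.06, Gaa (acid alpha-glucosidase) at -0.05 and Man2b1 (alpha-mannosidase) at -0.12. Gla (alpha-galactosidase A) was at -0.09 ± 0.49, the largest spot error of the 38 genes.

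The membrane genes were of 2 kinds. Lamp1 and Lamp2, the main glycoproteins that line the lysosomal membrane, were higher in the aneurysm library. Lamp1 was at 2.69 in the aneurysm library and 2.36 in the control library (difference 0.32 ± 0.06), and Lamp2 at -0.32 in the aneurysm library and -0.65 in the control library (0.33 ± 0.08). The tetraspanin Cd63, measured by 10 spots per array, differed by 0.31 ± 0.02. Mcoln1, a calcium channel of the lysosome, was at -0.02 ± 0.06, and the membrane protein gene Cln3 at -0.05 ± 0.16. Npc1, the cholesterol exporter that takes its cargo from Npc2, was at -0.14 ± 0.09 by 1 spot per array, and its second probe was at -0.04. Tfeb, which encodes the regulator of the lysosomal genes, was at -2.00 in the aneurysm library and -1.92 in the control library, a difference of -0.08 ± 0.12.

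**Figure D3:**
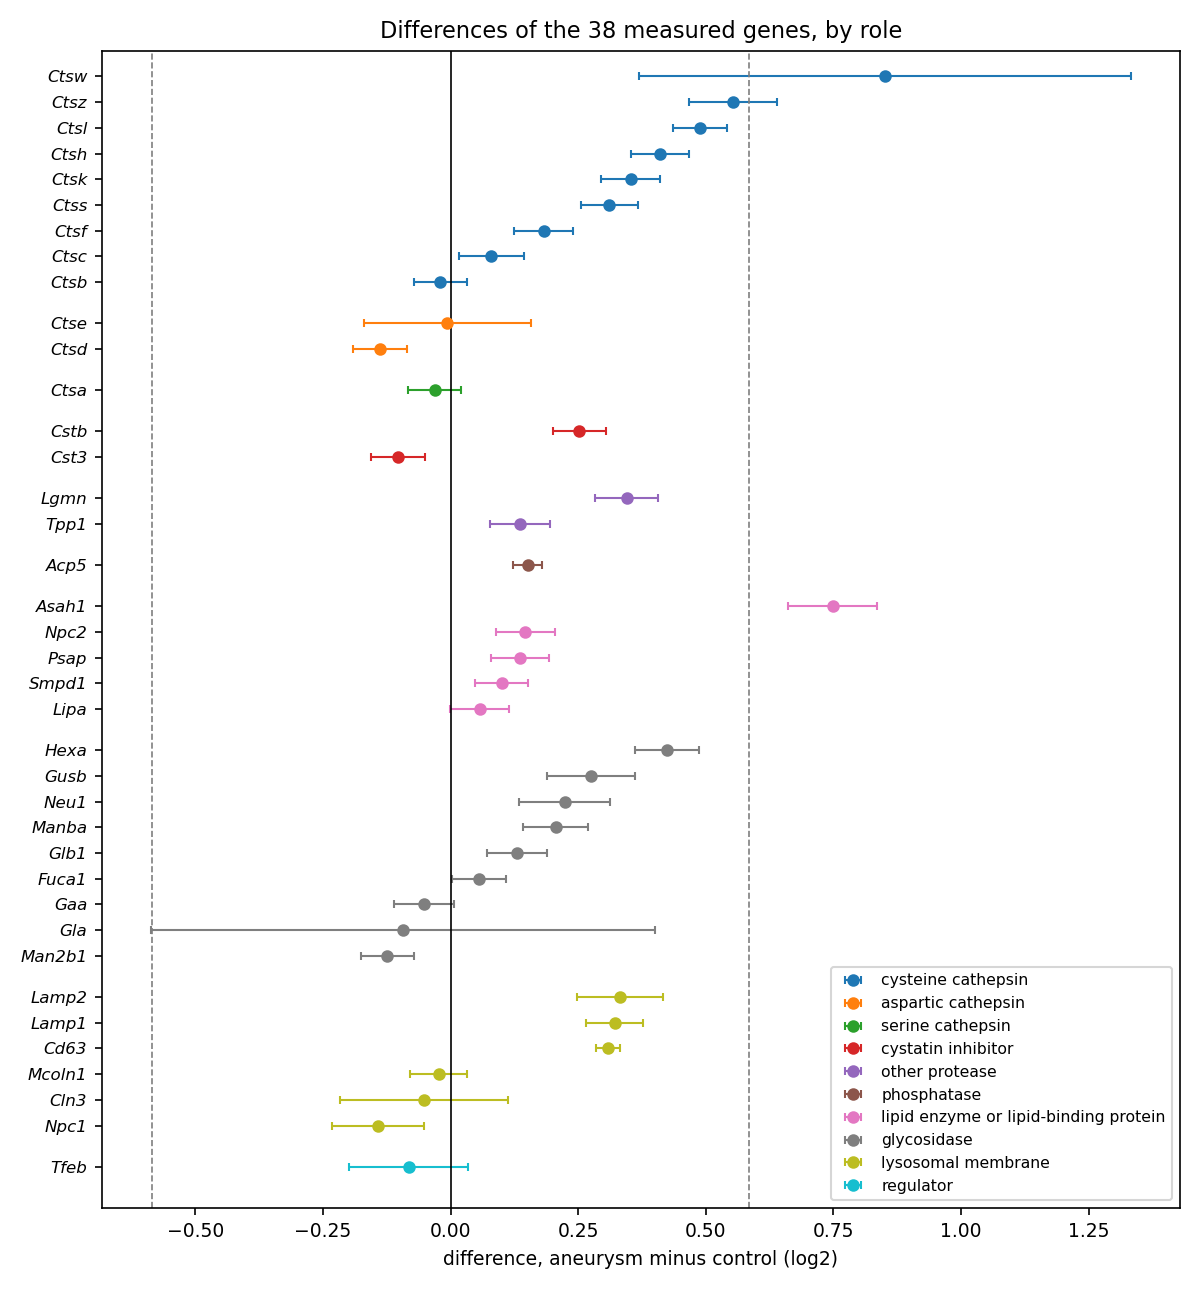
Difference (horizontal axis, log2 aneurysm minus control) of each of the 38 measured genes, one per row, grouped and coloured by role; bars are the spot error and dashed lines mark 1.5-fold. Ctsw and Asah1 lie past the upper dashed line, no gene lies past the lower one, and the lowest value is that of Npc1 at -0.14.

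TFEB binds an E-box called the CLEAR element, so the promoters of the genes were searched for it. RefSeq promoter windows of the GRCr8 build, 250 bases before and 50 after the start, were found for 46 of the 54 genes. CACGTG, which reads the same on both strands, occurred in 9 of these 46 genes (19.6%) and in 6.42% of all 33469 windows. The longer TCACGTGA, also the same on both strands and always overlapping a CACGTG, occurred in 4 genes (8.70%) and in 0.777% of all windows. The 4 genes with TCACGTGA are shown because they are the ones in which the motif of the regulator is read, with TCACGTGA in capitals, 5′ to 3′ on the strand of the gene. The Cln3 window is chr1:190597935-190597994 (minus strand), the Ctsd window chr1:206968822-206968881 (minus), the Lamp1 window chr16:83075083-83075142 (minus) and the Mcoln1 window chr12:6358212-6358271 (plus), which runs 14 bases past the start.
Cln3: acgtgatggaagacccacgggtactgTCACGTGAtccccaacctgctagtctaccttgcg
Ctsd: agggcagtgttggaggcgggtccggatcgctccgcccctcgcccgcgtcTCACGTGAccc
Lamp1: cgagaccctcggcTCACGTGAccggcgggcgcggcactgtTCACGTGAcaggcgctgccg
Mcoln1: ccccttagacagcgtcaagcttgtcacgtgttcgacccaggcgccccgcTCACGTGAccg

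These 4 genes did not move as one. Lamp1, whose window holds 2 copies, was at 0.32, while Mcoln1, Cln3 and Ctsd were at -0.02, -0.05 and -0.14. The 9 genes with CACGTG had a median difference of 0.13, and the 24 measured genes with a window but no CACGTG had 0.14. A match is a description of the letters and not of binding.

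Ctsl and Ctsz, the most shifted cathepsins with a small spot error, hold no CACGTG in their windows. GGGCGG, the GC box read on either strand, occurred in 26 of the 46 genes (56.5%) and in 33.1% of all windows, and both genes have it. The 25 measured genes with GGGCGG had a median difference of 0.13, and the 8 measured genes with a window but no GGGCGG had 0.21. The 100 bases before the start of each are shown with GGGCGG and its reverse complement in capitals. The Ctsl window is chr17:770004-770103 (plus strand) and the Ctsz window chr3:183653848-183653947 (minus strand).
Ctsl: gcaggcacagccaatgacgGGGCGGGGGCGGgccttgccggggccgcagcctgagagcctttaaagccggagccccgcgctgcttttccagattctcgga
Ctsz: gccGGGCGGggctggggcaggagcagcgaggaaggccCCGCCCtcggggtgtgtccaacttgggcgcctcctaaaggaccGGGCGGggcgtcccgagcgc

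A second list of 78 lysosomal and related genes, which holds other hydrolases, the proton pump, sorting receptors, cystatins and tetraspanins, showed a shift of like size. Of its genes 65 were measured, 47 of them higher (72.3%) and 18 lower, with a median of 0.17 and none past 1.5-fold in either direction. High values were those of the membrane protein gene Laptm4a (0.57 ± 0.06), the tetraspanin Cd81 (0.53 ± 0.05) and Scarb2 (0.51 ± 0.16), which carries beta-glucocerebrosidase to the lysosome. The tetraspanin Tspan8 and the hyaluronidase gene Hyal2 were each at 0.49. The cystatin gene Cst6 was lowest, at -0.42. Of the 14 measured proton pump genes 10 were higher, with a median of 0.15 and a range of -0.30 for Atp6v0a1 to 0.34 for Atp6v0d1. The mannose 6-phosphate receptor genes Igf2r and M6pr, which bring new hydrolases to the lysosome, differed by 0.24 ± 0.06 and 0.16 ± 0.08. Mitf, a relative of Tfeb, was at -0.10 ± 0.06, and Tfe3 had no matched probe.

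The size of the shift depended on how the arrays were set against each other, and its place relative to other genes did less so. Spike-in scaling shifts every gene alike: the median of all genes was then 0.31, that of the set 0.44 with Ctsq added, and all 39 were above 0. Over the 11 alternatives the median of these genes lay 0.12 to 0.21 above the median of all genes, beside 0.14 in the values above. Of the 38 genes, 26 were above 0 under all 11 alternatives, none was below 0 under all of them, and 12 had both signs. Of these 12, Ctsd, Gaa, Man2b1, Npc1 and Tfeb were above 0 with spike-in scaling alone.

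**Figure D4:**
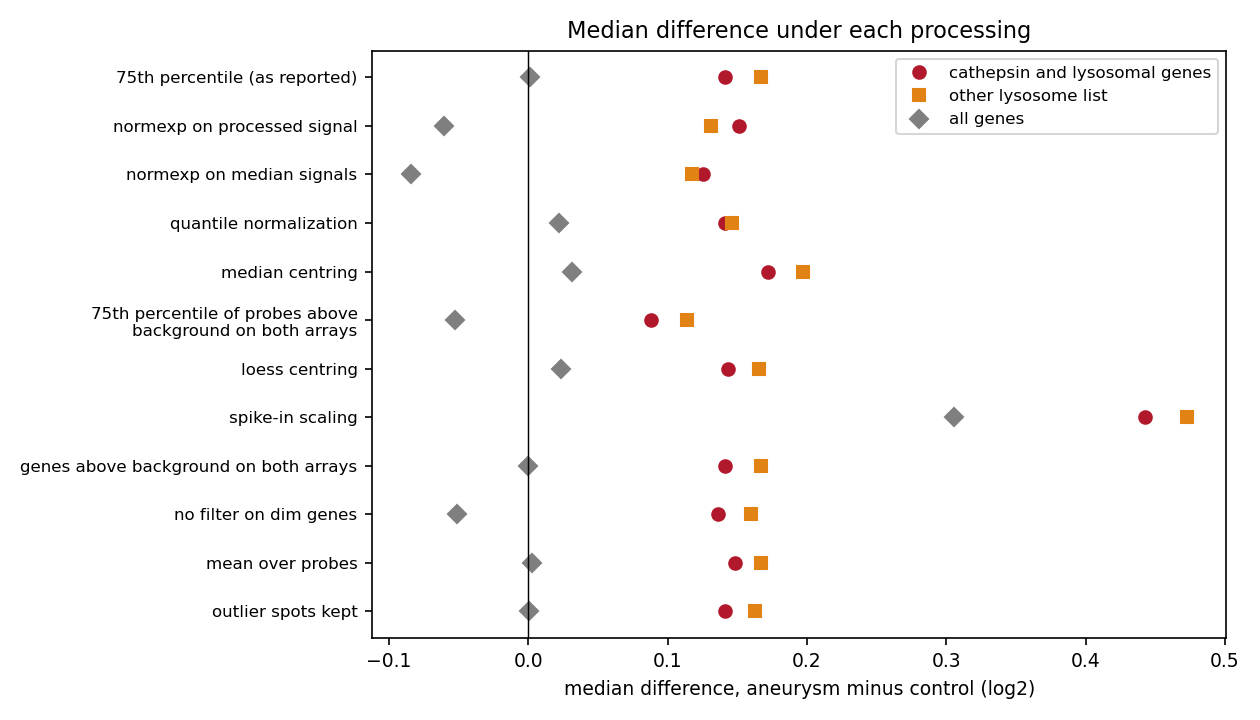
Median difference (horizontal axis, log2 aneurysm minus control) of the measured cathepsin and lysosomal genes (circles), the other lysosome list (squares) and all genes (diamonds) under each processing, one per row. With spike-in scaling all 3 medians move to the right together, to 0.44, 0.47 and 0.31, and in every row both lysosomal medians lie to the right of that of all genes.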

How the data were processed

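Total RNA, taken with a fibrous tissue kit, was labelled with Cy3 in one-colour mode, per the labels. The authors scanned the arrays and made the deposited processed spot intensities with Feature Extraction 10.10.1.1, on a linear scale and after spatial detrending, per the file headers; the background settings are not stated there. From each log2 intensity the log2 of the array's own 75th percentile was subtracted (801 in the aneurysm library and 621 in the control library, over 58717 spots that are no controls). Spots with outlier flags (573 and 484) were left out, and no spot was saturated. Of the spots, 76.4% and 74.7% were well above background. Spots of a probe were averaged, and the brightest probe flagged on either array stood for its gene. For a gene flagged on 1 array only, the other level was raised to that array's lowest flagged level if it lay under it. The difference is then a bound, and otherwise the measured one. Probe accessions, less their version, were looked up in RefSeq's GRCr8 gene table for names alone, since the array's design is older: 18006 of 30367 probes matched 1 gene and 12361 none.

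The spot SD was pooled over probes of like signal in 20 bins. The code was tested on simulated arrays. Named were all measured genes of the set, and of the other lists those with the largest absolute differences and others chosen for their role; some genes that this rule names are not reported here. The genes and lists were chosen with earlier results of these data known. Alternatives covered background correction (limma 3.58.1 normexp, offset 50), scaling, filters, probes and outliers. Mean spot signals were not used here, so normexp ran on processed signals and, added after seeing the data, on median signals. The ratios to cystatins and the counts above the median of all genes were also added then.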

Additional observations from a re-analysis of the deposited data

How the results depend on the processing

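No paired analysis was possible because each group has 1 array. Of the 11 alternatives, spike-in scaling changed most: the median difference was then 0.44 for the cathepsin and lysosomal genes, 0.49 for the cathepsins (0.25 as reported) and 0.47 for the other lysosome list. Of 39 genes of the set, 12 were then at least 1.5-fold higher, beside 17.0% of all genes, and 2 at least 2-fold higher. Shares of all genes past 2-fold are not given for the alternatives. Over all genes, 506 were at least 1.5-fold higher and 1003 lower as reported, 2039 and 554 with spike-in scaling, 114 and 562 with normexp on processed signals, 93 and 552 with normexp on median signals and 726 and 818 with quantile normalization. With normexp on processed signals 1 of the set was at least 1.5-fold higher, beside 0.985% of all genes. On median signals 0 were, beside 0.805%, with a cathepsin median of 0.13. With quantile normalization 1 gene, Ctsw, was at least 2-fold higher. With no filter on dim genes the cathepsin median was 0.0796. Of 47 genes of the set, 4 were then at least 1.5-fold and 1 at least 2-fold higher, and 1 at least 1.5-fold and at least 2-fold lower. The additions were probes not well above background on 1 or both arrays. Of all 15159 genes, 4.76% were at least 1.5-fold higher and 10.7% at least 1.5-fold lower under this setting. No 1.5-fold gene of the set changed sign under any alternative. Of 418 recomputed differences of single genes, 375 moved by no more than 2 spot errors. This count includes values that could not move. The filters on dim genes and the keeping of outlier spots leave each of the 38 genes as reported. The mean over probes can change only genes with a second probe. Signal over background limits Ctsw, Gla, Ctse and Cln3 most.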
